A study of Mus musculus with 9 samples.

Results

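The genes followed here code for bone morphogenetic protein (BMP) ligands and BMP receptors, measured in cultured sclerotome, the compartment of the somite from which the axial skeleton arises. They are 10 of the 18193 genes that had a probe set of their own on the array: the ligand genes Bmp2, Bmp4, Bmp5, Bmp6, Bmp7 and Gdf10 and the receptor genes Bmpr1a, Bmpr1b, Acvr1 and Bmpr2. The genes were chosen by symbol, and every probe set annotated to exactly 1 of these symbols was taken, which gave 25 of the 45037 probe sets tested. Bmpr1a had 6 probe sets, Bmp5, Bmp7, Bmpr1b, Acvr1 and Bmpr2 had 3 each, and Bmp2, Bmp4, Bmp6 and Gdf10 had 1 each.

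Total RNA was amplified and labelled for each sample on its own, and the labelled cRNA was hybridised to 9 mouse genome GeneChips from Affymetrix, 3 for each group. The groups were sclerotome cultures given BMP4 (50 ng/ml, 8 hours), cultures given TGF-β1 (5 ng/ml, 8 hours) and untreated cultures. All cells were dissected from wild type E11.5 mouse embryos, ventral to the neural tube and after the notochord had been taken away, and were grown in serum-containing medium as micromasses, which are dense drops of mesenchymal cells able to form cartilage. The sample records have the factors added the day after plating and the culture methods have them added with the medium shortly after attachment, and which is right is not known. The 3 arrays of a group came from separate setups of the experiment, and 3 arrays a group limit the precision of every value. The main fit did not use the replicate number as a block. Its p values therefore measure the spread of arrays within groups, differences between setups included. They do not measure how a treatment difference varied from setup to setup. Strain, sex and the number of embryos behind each culture are not given in the sources used here.

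BMPs are secreted dimers of the TGF-β family that bind complexes of type I and type II serine/threonine kinase receptors. Bmpr1a, Bmpr1b and Acvr1 code for type I receptors and Bmpr2 for a type II receptor, which activates the type I partner. The active complex phosphorylates Smad1, Smad5 and Smad9, which enter the nucleus with Smad4 and act on target genes such as the Id and Msx genes. The paper reports more cartilage nodules in sclerotome cultures given BMP4, at a later time than that of these arrays. TGF-β signals through Tgfbr1 and Tgfbr2.

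Sequence just upstream of the annotated start is shown for the 4 members that differed most from untreated cultures among those called. A window of 250 bases before the start was taken from RefSeq (mouse GRCm38.p6) for 10 start sites of 8 members (a window was not used for Bmp2 and Bmp7), and 2 short Smad motifs were searched on both strands: GGCGCC, an element bound by BMP Smads and its own reverse complement, and CAGAC, the Smad box, read as GTCTG on the other strand. These motifs do not overlap each other. Capitals mark the matches.
Bmp4, chr14:46390670-46390919, minus strand: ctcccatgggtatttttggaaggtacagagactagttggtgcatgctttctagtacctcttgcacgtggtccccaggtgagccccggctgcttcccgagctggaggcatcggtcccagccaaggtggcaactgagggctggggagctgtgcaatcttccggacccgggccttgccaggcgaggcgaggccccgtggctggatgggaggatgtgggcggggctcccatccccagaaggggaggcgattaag
Gdf10, chr14:33923337-33923586, plus strand: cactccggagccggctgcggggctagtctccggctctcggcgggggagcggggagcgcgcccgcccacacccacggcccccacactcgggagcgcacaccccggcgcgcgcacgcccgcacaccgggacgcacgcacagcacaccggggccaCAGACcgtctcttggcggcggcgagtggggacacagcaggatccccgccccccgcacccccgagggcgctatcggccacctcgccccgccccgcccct
Acvr1, chr2:58566829-58567078, minus strand: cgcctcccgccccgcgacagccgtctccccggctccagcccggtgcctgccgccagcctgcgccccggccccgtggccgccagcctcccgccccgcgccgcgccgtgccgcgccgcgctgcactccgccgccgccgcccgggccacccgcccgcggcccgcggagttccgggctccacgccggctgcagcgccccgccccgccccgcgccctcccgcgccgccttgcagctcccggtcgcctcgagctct
Bmpr2, chr1:59764029-59764278, plus strand: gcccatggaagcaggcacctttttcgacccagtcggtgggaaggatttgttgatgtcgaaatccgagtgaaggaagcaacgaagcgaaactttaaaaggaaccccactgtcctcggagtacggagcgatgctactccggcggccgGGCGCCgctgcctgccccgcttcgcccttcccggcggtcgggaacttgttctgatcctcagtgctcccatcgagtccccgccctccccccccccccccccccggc
GGCGCC stood in the windows of Bmpr1a and Bmpr2 and in 9.59% of all 32851 windows of this length. CAGAC or GTCTG stood in windows of Bmp5, Bmp6, Gdf10 and Bmpr1b and in 42.2% of all windows. The windows of Bmp4 and Acvr1 held neither motif. G and C made up 85.6% of the Acvr1 window, 78.8% of the Gdf10 window, 64.0% of the Bmpr2 window and 63.2% of the Bmp4 window, against a median of 52.4% over all windows. Gdf10 and Bmpr1a both lie on chromosome 14, with 579210 bases between the starts of their windows.

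The deposited values are log2 signals from which the median of the 9 arrays had been subtracted for each probe set. They keep differences between arrays and no level, so that genes cannot be ranked by abundance and the presence of a marker cannot be judged. In whole cultures, fewer cells of a type and less RNA per cell cannot be told apart. The arrays numbered 2 stood apart from the others on a component that held 16.7% of the variance, at -19.4 with BMP4, -30.5 with TGF-β1 and -14.3 untreated, against -4.75 to 24.0 on the other 6 arrays, and results that rest on them are also given without them. Of 8 markers of sclerotome, 5 were lower with BMP4 than in untreated cultures and 0 were called with TGF-β1 (3 at an unadjusted p under 0.05, and 1 lower with the replicate block). Among markers of other cells that a dissection could carry along, limma called 1 higher and 1 lower of 7 skeletal muscle genes, 1 higher and 1 lower of 6 neuron genes and 1 lower of 4 notochord and floor plate genes with BMP4, and 0 of the 4 neural crest, 6 endothelial, 4 erythroid and 5 macrophage genes (0, 1, 3 and 0 at an unadjusted p under 0.05). With TGF-β1 it called 1 lower neuron gene, 1 lower macrophage gene and 0 of the skeletal muscle, neural crest, notochord and floor plate, endothelial and erythroid genes (3, 1, 1, 0 and 2 at an unadjusted p under 0.05). With the replicate block, 3 skeletal muscle genes (Myod1, Myf5 and Tnnt2), 2 neuron genes, 1 neural crest gene (Ednrb) and 1 macrophage gene were lower with TGF-β1. The block called 13.4% of all genes in that comparison. With BMP4 the block gave 6 lower sclerotome genes, 2 higher neuron genes, 1 lower neural crest gene (Ednrb) and 1 higher endothelial gene (Kdr). It left the other marker counts with BMP4 unchanged and called 13.1% of all genes. Without the block, 7.96% of all genes were called with BMP4 and 6.75% with TGF-β1. The part of the markers in the members' values was not tested.

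**Figure D1:**
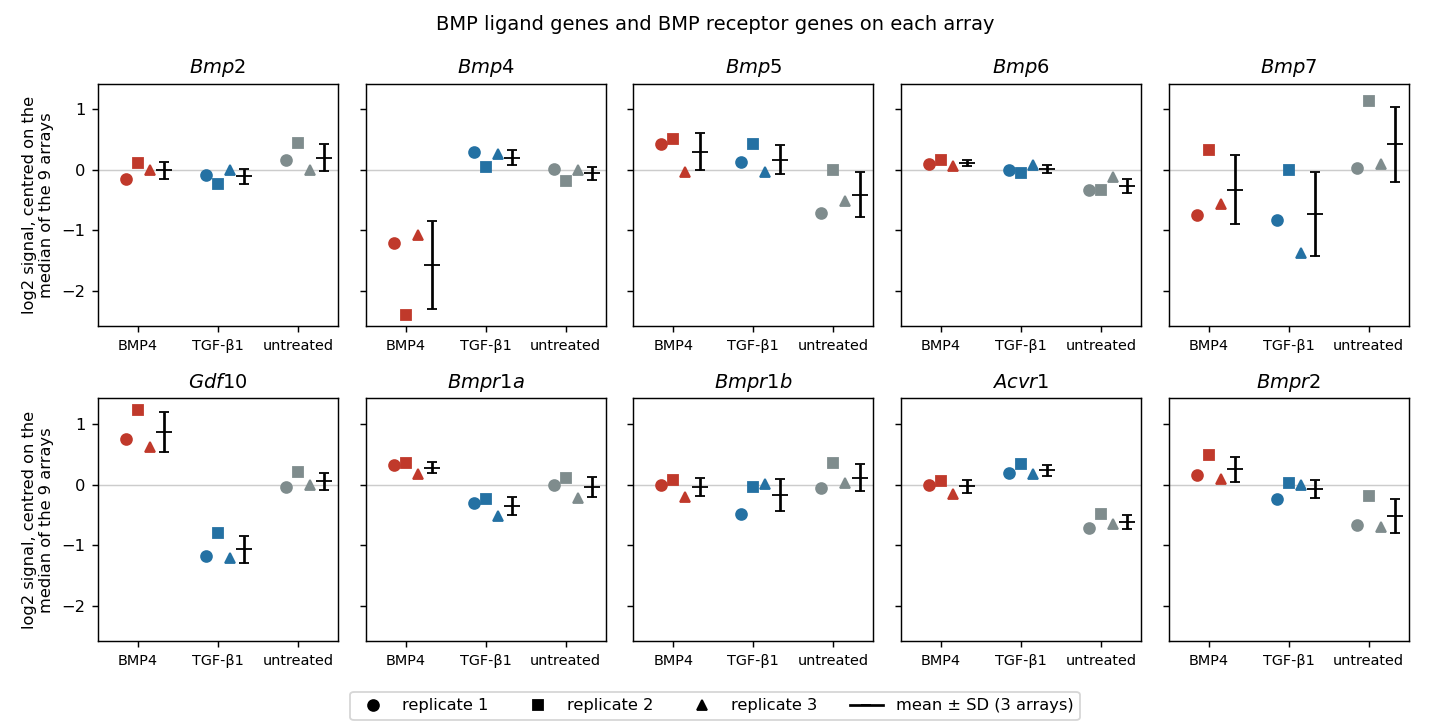
Log2 signal of each member gene (probe set with the largest variance), centred on the median of the 9 arrays, on every array with BMP4 (red), TGF-β1 (blue) and untreated (grey); the marker shape is the replicate number and black bars are the mean ± SD of 3 arrays. Bmp4 lies far below the other arrays with BMP4, Gdf10 is high with BMP4 and low with TGF-β1, and Acvr1 is above the untreated arrays with both factors.

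BMP4 was first set against no treatment, which asks how these genes respond to a BMP ligand within 8 hours. Bmp4 RNA itself was 2.85-fold lower, Gdf10 RNA was 1.76-fold higher, and the RNAs of the receptor genes Acvr1 and Bmpr2 were 1.51-fold and 1.71-fold higher. In limma, 8 of the 25 member probe sets were called at an adjusted p under 0.05, 7 of them higher and 1 lower, where 5.44% of all probe sets were called, 2.31% higher and 3.13% lower. For 16 member probe sets the BMP4 and untreated arrays were fully apart, 15 with BMP4 above and 1 with BMP4 below, where this held for 20.0% of all probe sets, 9.71% above and 10.3% below. The median log2 difference was 0.35 over the member probe sets and 0.0012 over all probe sets. Counted once per gene, by the probe set with the largest variance, 5 of 10 members were called (Bmp4, Bmp6, Gdf10, Acvr1 and Bmpr2), where 7.96% of all genes were. Probe sets of 1 gene are not independent of each other. Without BMP4 replicate 2 the counts were 5 probe sets and 3 genes, without untreated replicate 1 they were 4 and 2, and without untreated replicate 3 the genes called were 3. With the replicate number as a block, both counts were higher than in the main fit, and 13.1% of all genes were called. Those counts are given in the closing section, since the numbers were not taken as pairs in this comparison. The methods' t-test, with its 2-fold threshold, called 0 member probe sets here, 1 with TGF-β1 against untreated and 2 with TGF-β1 against BMP4, and 0 after Benjamini-Hochberg adjustment in all 3 comparisons.

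Bmp4 codes for the same ligand that was added to the medium as protein. Its values on the arrays numbered 1, 2 and 3 (the order used throughout) were -1.22, -2.41 and -1.08 with BMP4, against 0.01, -0.19 and 0 in untreated cultures. All 3 BMP4 arrays lay below all 3 untreated arrays, and the array numbered 2 lay lowest in both groups. The log2 difference was -1.51 ± 0.28 (SE, n = 3 per group, adjusted p = 0.012). Leaving out BMP4 replicate 2 gave -1.09, adjusted p = 0.0011, and leaving out the 3 arrays numbered 2 gave -1.16, adjusted p = 0.0016.

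Gdf10, whose product is also known as BMP3b and is a close relative of BMP3, read 0.75, 1.24 and 0.62 with BMP4, against -0.04, 0.21 and 0 in untreated cultures. The BMP4 arrays were all higher, with a log2 difference of 0.82 ± 0.17 (adjusted p = 0.019). Leaving out untreated replicate 1 (adjusted p = 0.073) or untreated replicate 3 (0.061) ended the call. Bmp6, which codes for a ligand of the same subgroup as Bmp5 and Bmp7, read 0.09, 0.16 and 0.07 with BMP4, against -0.33, -0.34 and -0.13 in untreated cultures. The groups were apart by a small margin, 1.30-fold higher with BMP4 (log2 difference 0.37 ± 0.08, adjusted p = 0.027). Leaving out BMP4 replicate 1 (adjusted p = 0.08), 2 (0.11) or 3 (0.056), or untreated replicate 1 (0.097) or 2 (0.087), ended this call, as did a fit without the 3 arrays numbered 2 (0.24).

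The 3 probe sets of Bmp5, a ligand gene known from the short ear mouse, gave log2 differences of 0.71, 0.55 and 0.63 with BMP4, of which only the last was called (1455851_at, ± 0.11, adjusted p = 0.0071). That probe set read 0.14, 0.40 and 0.07 with BMP4, against -0.45, -0.31 and -0.52 in untreated cultures. For the other 2 probe sets (adjusted p = 0.081 and 0.2) the arrays of the groups overlapped, with untreated replicate 2 at 0 and BMP4 replicate 3 at -0.04 and -0.13. Both were called with the replicate number as a block (adjusted p = 0.022 for the second). The most variable of them was called without BMP4 replicate 3 (0.88, adjusted p = 0.045) and without untreated replicate 2 (0.92, adjusted p = 0.027). The 4 measured erythroid markers averaged -0.38 to 0.07 on the arrays with BMP4, against 0.91, -0.18 and 1.19 on the untreated arrays, and their part in the Bmp5 values was not tested.

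Bmp2 and Bmp7 code for further ligands, and neither was called with BMP4. Bmp2, which forms a subgroup with Bmp4, had a log2 difference of -0.21 (95% interval -0.48 to 0.06, adjusted p = 0.45). Bmp7 read -0.74, 0.32 and -0.57 with BMP4, against 0.03, 1.14 and 0.10 in untreated cultures on its most variable probe set, and the groups overlapped, with the array numbered 2 far above the others in each group. Its log2 difference of -0.76 had an interval of -1.65 to 0.14 (adjusted p = 0.4). The other 2 Bmp7 probe sets gave -0.46 and -0.22 and were not called. At each replicate number, though, the BMP4 array of the most variable probe set lay below the untreated array. With the replicate number as a block this probe set was called lower, as was the one at -0.46 (adjusted p = 0.021).

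Among the receptor genes, Acvr1, which codes for the type I receptor ALK2, read 0, 0.06 and -0.15 with BMP4, against -0.72, -0.49 and -0.65 in untreated cultures. Every BMP4 array was above every untreated array, by more than the spread within either group, and the log2 difference was 0.59 ± 0.09 (adjusted p = 0.0048). A further Acvr1 probe set gave 0.60 ± 0.12 (adjusted p = 0.018), and lost the call without BMP4 replicate 2 (adjusted p = 0.074), BMP4 replicate 3 (0.059) or untreated replicate 1 (0.053). The remaining probe set (1416787_at) gave 0.07, with an interval of -0.12 to 0.27, so that the probe sets of this gene disagreed in size.

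Bmpr2 read 0.17, 0.49 and 0.10 with BMP4, against -0.67, -0.19 and -0.70 in untreated cultures. The groups did not overlap, and the log2 difference was 0.77 ± 0.15 (adjusted p = 0.016), a call that ended without BMP4 replicate 2 (adjusted p = 0.065) or without untreated replicate 1 (0.066) or 3 (0.058). Its probe set 1434310_at, with 0.20, 0.50 and 0.39 with BMP4 against -0.20, -0.39 and -0.36 untreated, was called at 0.68 ± 0.09 (adjusted p = 0.0024), and this call was kept without any single array. The remaining Bmpr2 probe set, at 0.37, was not called (adjusted p = 0.078), though its BMP4 arrays also lay above the untreated ones.

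Bmpr1a, which codes for the type I receptor ALK3, had all 6 probe sets higher on every BMP4 array than on any untreated array. None of them passed the test in the main fit, though all 6 had an unadjusted p under 0.05. Their log2 differences ran from 0.25 to 0.47, with adjusted p from 0.059 to 0.28. With the replicate number as a block, 1425491_at (adjusted p = 0.039), 1425494_s_at (0.028) and the most variable probe set were called. Limma also called 1425491_at after quantile normalization and with array weights (adjusted p = 0.038 in each). The most variable of the 6 read 0.32, 0.35 and 0.17 with BMP4, against 0, 0.10 and -0.22 in untreated cultures (log2 difference 0.32, interval 0.08 to 0.56, adjusted p = 0.14 in the main fit). When all probe sets of a gene were averaged before the fit, Bmpr1a was called (0.33 ± 0.08, adjusted p = 0.023), as was Bmp5 (0.63 ± 0.16, adjusted p = 0.037). Bmpr1b, the gene for the type I receptor ALK6, gave -0.15, 0.11 and -0.21 on its 3 probe sets, with overlapping arrays in each, and the interval for the most variable of them ran from -0.49 to 0.18.

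**Figure D2:**
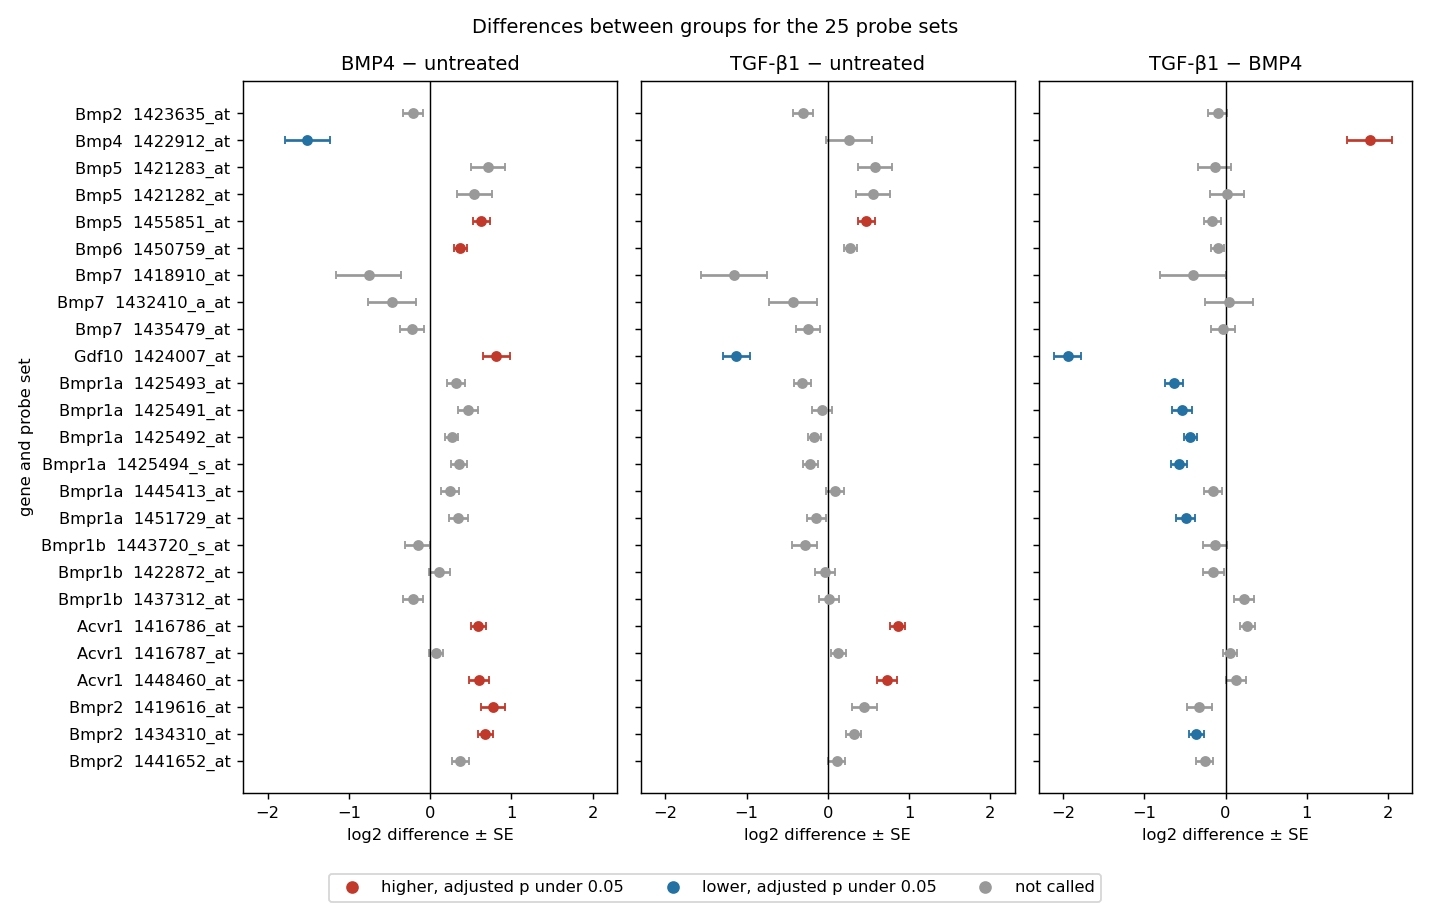
Log2 difference ± SE (x axis) of each of the 25 member probe sets (y axis) for BMP4 against untreated (left), TGF-β1 against untreated (middle) and TGF-β1 against BMP4 (right); red and blue points passed an adjusted p under 0.05 and were higher or lower, grey points did not pass. Called points number 8, 4 and 8 in the 3 panels, and the 6 Bmpr1a probe sets all lie right of 0 with BMP4.

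TGF-β1 was next set against the same untreated arrays, which asks how the members respond to the other branch of the family. Acvr1 RNA was 1.81-fold higher and Gdf10 RNA was 2.18-fold lower. In limma, 4 of the 25 probe sets were called, 3 higher and 1 lower, where 4.43% of all probe sets were called, 1.83% higher and 2.60% lower. For 10 member probe sets the TGF-β1 and untreated arrays were fully apart, 6 with TGF-β1 above and 4 with TGF-β1 below, where this held for 21.8% of all probe sets, 9.87% above and 12.0% below. The median log2 difference of the member probe sets was 0.01, and that of all probe sets was 0.01. By gene, 2 of 10 members were called (Gdf10 and Acvr1), where 6.75% of all genes were. With the replicate number as a block, 10 probe sets and 6 genes were called, where 4029 of all probe sets and 13.4% of all genes were.

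Gdf10 read -1.19, -0.81 and -1.21 with TGF-β1, against -0.04, 0.21 and 0 in untreated cultures. Each TGF-β1 array lay below each untreated array, and the log2 difference was -1.13 ± 0.17 (adjusted p = 0.006), opposite in sign to the difference with BMP4. This call was kept without any single array. Bmp4 read 0.29, 0.05 and 0.27 with TGF-β1, against 0.01, -0.19 and 0 untreated, and every TGF-β1 array lay above every untreated array, with a log2 difference of 0.26 (interval -0.36 to 0.89, adjusted p = 0.67).

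Acvr1 read 0.19, 0.34 and 0.18 with TGF-β1, against -0.72, -0.49 and -0.65 untreated, with a log2 difference of 0.86 ± 0.09 (adjusted p = 0.001). The TGF-β1 arrays were all far above the untreated ones. The second called Acvr1 probe set gave 0.73 ± 0.12 (adjusted p = 0.0099) and 1416787_at gave 0.13 (interval -0.06 to 0.33), the same disagreement as with BMP4. Bmp5 was called on 1455851_at only, which read 0, 0.17 and -0.04 with TGF-β1, against -0.45, -0.31 and -0.52 untreated (log2 difference 0.47 ± 0.11, adjusted p = 0.035). The Bmp5 call was lost without TGF-β1 replicate 1 (adjusted p = 0.087), 2 (0.11) or 3 (0.075), BMP4 replicate 1 (0.055), untreated replicate 1 (0.11) or 3 (0.079), and without the 3 arrays numbered 2 (0.058). The other 2 Bmp5 probe sets gave 0.58 and 0.56 and were called with the replicate block (adjusted p = 0.023 and 0.022).

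Bmp7 had the largest difference among the members not called with TGF-β1. It read -0.82, 0 and -1.38 with TGF-β1, against 0.03, 1.14 and 0.10 untreated, and all TGF-β1 arrays lay below all untreated arrays, with a narrow gap between TGF-β1 replicate 2 and untreated replicate 1. The log2 difference was -1.16 ± 0.40 (interval -2.06 to -0.26, adjusted p = 0.15). With the replicate block it was called (adjusted p = 0.0015), as it was without the 3 arrays numbered 2 (-1.17, adjusted p = 0.024). A second Bmp7 probe set, at -0.42, was also called with the block (adjusted p = 0.032), and the third, at -0.25, was not. The neuron markers were lowest on the array numbered 2 of each group (means over 6 genes of -0.30 with BMP4, -0.71 with TGF-β1 and -0.16 untreated), where Bmp7 was highest, and their part in the Bmp7 values was not tested.

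The block also brought in Bmpr1a (-0.31 on the most variable probe set, adjusted p = 0.15 without and 0.025 with the block) and Bmpr2 (0.45, adjusted p = 0.14 without and 0.025 with the block). Bmpr1a read -0.30, -0.24 and -0.52 with TGF-β1, against 0, 0.10 and -0.22 untreated, and its other 5 probe sets differed by -0.21 to 0.09, none called. Bmpr2 read -0.24, 0.03 and 0 with TGF-β1, against -0.67, -0.19 and -0.70 untreated, where TGF-β1 replicate 1 lay below untreated replicate 2, and it was called without that untreated array (0.61, adjusted p = 0.048). Averaged over its probe sets, Bmpr2 was called higher with TGF-β1 (0.29 ± 0.07, adjusted p = 0.026). The same average left Bmpr1a (-0.13, adjusted p = 0.32), Bmp5 (0.54, adjusted p = 0.073) and Bmp7 (-0.61, adjusted p = 0.21) uncalled. Bmp6 had a log2 difference of 0.28 (interval 0.09 to 0.46, adjusted p = 0.096), Bmp2 of -0.31 (interval -0.58 to -0.04, adjusted p = 0.21) and Bmpr1b of -0.28 (interval -0.62 to 0.06, adjusted p = 0.36), and these 3 were not called. Bmp6 was called without untreated replicate 3 (0.35, adjusted p = 0.045). It was also called in the fit of means over probe sets, at an adjusted p that rounds to 0.05.

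Set directly against BMP4, TGF-β1 gave the widest differences of the set in Gdf10 and Bmp4. Gdf10 was 3.84-fold lower with TGF-β1 (-1.94 ± 0.17, adjusted p = 0.00013) and Bmp4 was 3.42-fold higher (1.77 ± 0.28, adjusted p = 0.0042), from arrays that are given above and did not overlap. In limma, 8 of 25 probe sets were called, 1 higher and 7 lower, where 6.91% of all probe sets were called, 3.41% higher and 3.49% lower. For 11 member probe sets the TGF-β1 and BMP4 arrays were fully apart, 2 with TGF-β1 above and 9 with TGF-β1 below, where this held for 25.5% of all probe sets, 12.0% above and 13.5% below. The median log2 difference was -0.15 over the member probe sets and 0.01 over all probe sets. By gene, 3 of 10 members were called (Bmp4, Gdf10 and Bmpr1a), where 10.1% of all genes were. Without TGF-β1 replicate 2 or TGF-β1 replicate 3 the probe sets called were 5, and without the 3 arrays numbered 2 they were 3. Calls over all probe sets in such fits are given in the closing section.

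Bmpr1a accounted for 5 of the 7 probe sets that were lower with TGF-β1 than with BMP4. Its most variable probe set, read at -0.30, -0.24 and -0.52 with TGF-β1 and at 0.32, 0.35 and 0.17 with BMP4, differed by -0.63 ± 0.11 (adjusted p = 0.0065), and the other 4 called probe sets differed by -0.43 to -0.57 (adjusted p from 0.0064 to 0.032). The sixth, 1445413_at, gave -0.16 and was not called (interval -0.40 to 0.09). Of the 5 called, 1425491_at and 1451729_at lost the call when TGF-β1 replicate 2 (adjusted p = 0.09 and 0.075), TGF-β1 replicate 3 (0.071 and 0.097), BMP4 replicate 1 (0.11 and 0.068) or BMP4 replicate 2 (0.1 and 0.12) was left out, 1425491_at also without TGF-β1 replicate 1 (0.079) and 1451729_at also without untreated replicate 1 (0.05). Without the 3 arrays numbered 2, the most variable Bmpr1a probe set alone among the 5 was still called, and the others had adjusted p from 0.079 to 0.2.

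Bmpr2 was lower with TGF-β1 than with BMP4 on 1434310_at alone among its 3 probe sets (-0.36 ± 0.09, adjusted p = 0.043), where the arrays read -0.01, 0.02 and 0 with TGF-β1 and 0.20, 0.50 and 0.39 with BMP4. All 3 Bmpr2 probe sets had their TGF-β1 arrays below their BMP4 arrays. The call was lost without TGF-β1 replicate 1 (adjusted p = 0.11), TGF-β1 replicate 2 (0.1), TGF-β1 replicate 3 (0.12), BMP4 replicate 2 (0.15), BMP4 replicate 3 (0.11) or untreated replicate 3 (0.055), and without the 3 arrays numbered 2 (0.22). Averaged over its probe sets, Bmpr2 was called lower with TGF-β1 than with BMP4 (-0.31 ± 0.07, adjusted p = 0.014). Acvr1 was above with TGF-β1 on every array of its most variable probe set, by 0.27 (interval 0.06 to 0.47, adjusted p = 0.13), and was called with the replicate block (adjusted p = 0.047). Bmp2, Bmp5, Bmp6, Bmp7 and Bmpr1b were not called between the 2 factors, with intervals on their most variable probe sets of -0.37 to 0.17, -0.59 to 0.32, -0.28 to 0.09, -1.30 to 0.50 and -0.47 to 0.21.

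**Figure D3:**
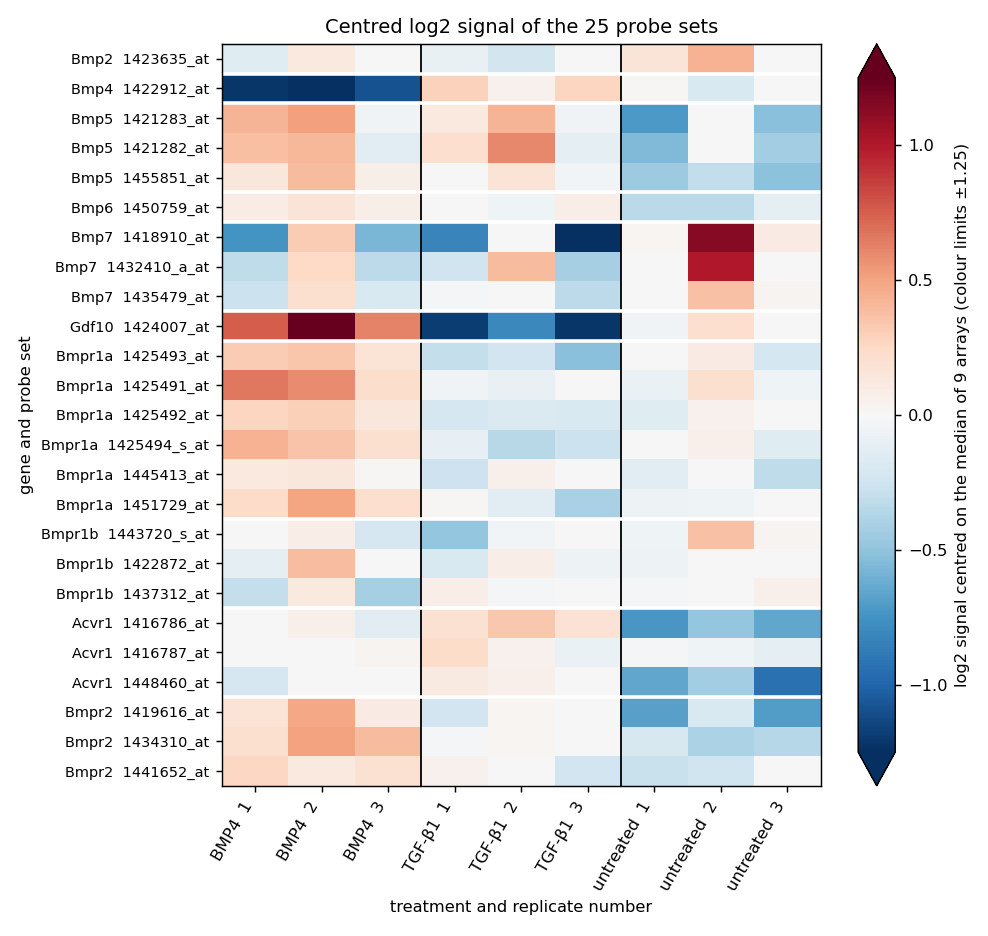
Centred log2 signal (colour) of the 25 member probe sets (rows, by gene) on the 9 arrays (columns: BMP4, TGF-β1, untreated, each with replicates 1 to 3). Bmp7 is warmest on the array numbered 2 of each treatment, Gdf10 parts the treatments on every array, and the Acvr1 probe set in the middle of its 3 rows shows little contrast.

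The members also varied with the replicate number. Bmp7 stood highest on the array numbered 2 in all 3 groups on each of its 3 probe sets, where its most variable probe set was 0.70 above its group mean on average. Bmp5 behaved likewise on its 3 probe sets, and so did Gdf10 (0.26 above its group means) and the most variable probe sets of Acvr1 (0.11), Bmpr2 (0.22) and Bmpr1a (0.11). Bmp4 went the other way and was lowest on the array numbered 2 in all 3 groups, 0.37 below its group means on average. Without these 3 arrays limma still called Bmp4 (-1.16, adjusted p = 0.0016), Gdf10 (0.71, adjusted p = 0.012), Acvr1 (0.61, adjusted p = 0.023) and Bmpr2 (0.82, adjusted p = 0.012) with BMP4, and Gdf10 (-1.18, adjusted p = 0.0027) and Acvr1 (0.87, adjusted p = 0.0078) with TGF-β1.

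The genes most like the 4 leading members over the 9 arrays are given as a description, and the arrays share treatment groups and setups. Bmp4 ran closest to Slc9a3r1, which codes for a scaffold protein beneath the membrane (Pearson r = 0.994), the collagen gene Col18a1 (0.991) and the transcription factor gene Creb3l1 (0.986). Gdf10 ran closest to Asb4 (0.991), the transcription factor gene Elf1 (0.990) and the thioesterase gene Acot1 (0.988). Acvr1 ran closest to Lrrc17 (0.981), the lysyl oxidase family gene Loxl3 (0.977) and Bcat1 (0.976), whose enzyme acts on branched-chain amino acids, and Bmpr2 to Zfp131 (0.966), Trim47 (0.965) and Prr16 (0.945). No other member was among them.

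The rest of the pathway was read from 6 lists, by the most variable probe set of each gene. The lists were chosen with earlier results of these data known, so their counts are a description only. Genes known as targets of BMP signalling were higher with BMP4 in 9 of 11 cases and lower in 0, with a median log2 difference of 1.17 against 0.0026 over all genes, and 7.96% of all genes were called. Gata3 (2.62 ± 0.33, adjusted p = 0.0018), Msx2 (1.90 ± 0.30, adjusted p = 0.0057) and Hey1 (1.67 ± 0.14, adjusted p = 0.00023), which code for transcription factors, differed most among them. With TGF-β1, 0 of the 11 were called against untreated cultures (2 at an unadjusted p under 0.05, and 2 lower with the replicate block), and 10 of 11 (11 with the block) were lower with TGF-β1 than with BMP4. Of all genes, 6.75% were called with TGF-β1 against untreated (13.4% with the block) and 10.1% against BMP4 (16.8% with the block). These shares also stand beside the counts of the other lists below.

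Extracellular antagonists and modulators were called higher with BMP4 in 7 of 19 cases and lower in 3. Nog (3.36 ± 0.16, adjusted p = 3.7e-05), the gene for the BMP-binding antagonist noggin, Chrdl2 (2.14 ± 0.14, adjusted p = 7.2e-05), a chordin-like gene, and Sost (1.93 ± 0.29, adjusted p = 0.0044), the gene for sclerostin, differed most. With TGF-β1, 2 of 19 were higher and 1 was lower (2 lower with the block): Fstl3 (1.17 ± 0.10, adjusted p = 0.00035) and Fst (1.14 ± 0.10, adjusted p = 0.00029), which code for follistatin-type binders of activin, and Sostdc1 (-0.66 ± 0.11, adjusted p = 0.0097), another secreted antagonist. Both Fst (0.44 ± 0.10, adjusted p = 0.027) and Fstl3 (0.50 ± 0.10, adjusted p = 0.019) were also higher with BMP4.

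Of 11 genes for Smads and their regulators, 2 were higher with BMP4 and 0 lower: the inhibitory Smad genes Smad6 (1.79 ± 0.13, adjusted p = 0.00011) and Smad7 (1.12 ± 0.10, adjusted p = 0.00024). With TGF-β1, 3 were higher and 0 lower, namely Smad7 (0.41 ± 0.10, adjusted p = 0.048), the corepressor gene Skil (0.71 ± 0.11, adjusted p = 0.0081) and the ubiquitin ligase gene Smurf1 (0.45 ± 0.10, adjusted p = 0.03), and with the replicate block 5 were higher and 1 lower. Of 7 genes for co-receptors and the pseudoreceptor Bambi, 1 was higher and 2 were lower with BMP4. The RNA of Bambi was higher (1.94 ± 0.10, adjusted p = 3.9e-05), and Tgfbr3 (-2.14 ± 0.16, adjusted p = 0.00011), the gene for betaglycan, and the co-receptor gene Rgma (-0.59 ± 0.08, adjusted p = 0.0018) were lower. Tgfbr3 was the 1 gene of this list called with TGF-β1 (-2.18 ± 0.16, adjusted p = 0.00015), where the block gave 2 lower.

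The other receptors and ligands of the family come last. Of 8 other receptor genes, Acvr1b, an activin type I receptor gene, was higher (0.47 ± 0.08, adjusted p = 0.0082) and Tgfbr2, the type II receptor gene for TGF-β, was lower with BMP4 (-1.35 ± 0.16, adjusted p = 0.0013), and 0 of 8 were called with TGF-β1 (1 at an unadjusted p under 0.05, and 1 lower with the block). Of 9 other ligand genes, Gdf5, which is known for joint formation, was lower with BMP4 (-1.28 ± 0.18, adjusted p = 0.0032), and 0 of 9 were called with TGF-β1 (0 at an unadjusted p under 0.05).

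**Figure D4:**
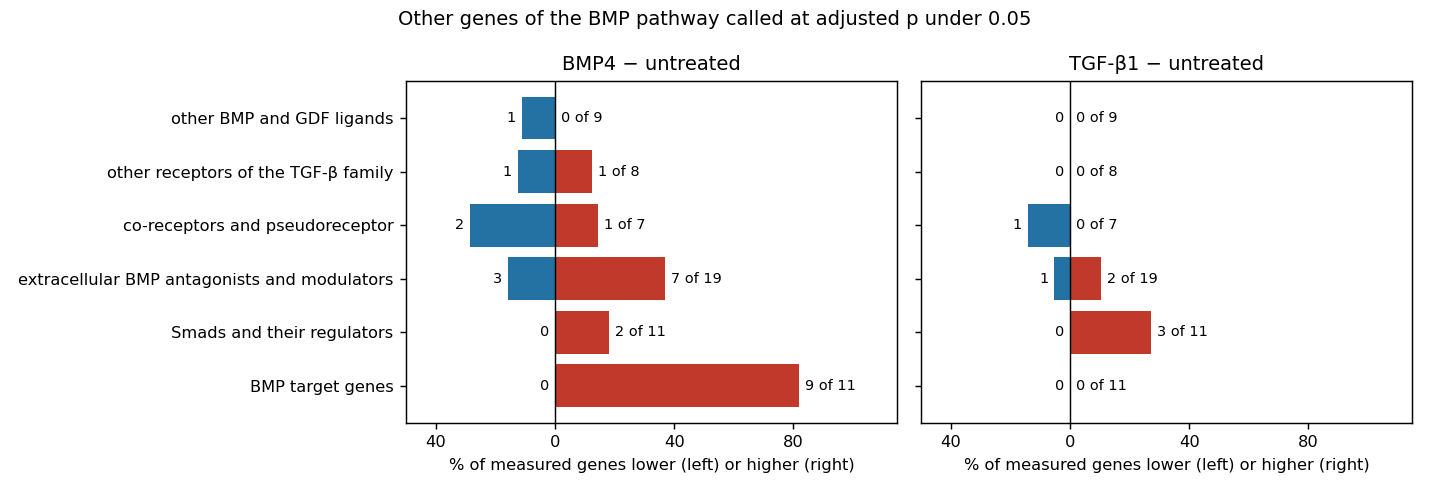
Share of the measured genes of each list (rows) that were higher (red, to the right) or lower (blue, to the left) at an adjusted p under 0.05, for BMP4 (left panel) and TGF-β1 (right panel) against untreated cultures; numbers beside the bars are gene counts. BMP target genes reach 9 of 11 higher with BMP4 against 0 with TGF-β1. Antagonists and modulators reach 7 of 19 with BMP4. The lists were chosen with earlier results of these data known.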

How the data were processed

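Values were the log2 signals deposited in the series' table, which the authors made from the raw array files by background subtraction and RMA normalization with the default settings of GeneSpring (versions are not given in the sources used here). Tests on the file showed that the median over the 9 arrays was 0 for 45101 of 45101 probe sets (tolerance 1e-06), so levels were lost, signal over background could not be judged and no filter on dim probe sets was possible. The 64 control probe sets were left out, and 0 pairs of arrays were identical. Symbols came from the platform annotation, in which 34945 probe sets had 1 symbol, 932 several and 9160 none, and all 25 member probe sets matched a RefSeq gene by Entrez identifier with 0 symbols changed.

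The 3 groups were fitted together with limma 3.58.1 in R 4.3.3, on all 9 arrays (6 residual and 4.01 prior degrees of freedom). P values are two-sided and adjusted by the Benjamini-Hochberg method over 45037 probe sets, and a probe set was called at an adjusted p under 0.05. Intervals are 95% intervals from the model. Fold is 2 to the power of the log2 difference. A gene was represented by its probe set with the largest variance, a choice made without the groups. The fit was tested on simulated data. All 10 members are named, together with up to 3 called genes of each list by size of difference, genes named for both factors included. The members, lists and alternatives were chosen with earlier results of these data known. Fst, Fstl3, Sostdc1 and Smurf1 were named after their values were seen, to identify small counts.

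Same-numbered arrays were checked for pairing by the correlation of their deviations from the group means: 0.14, 0.49 and 0.28 for TGF-β1 with untreated, 0.29, 0.50 and 0.38 for TGF-β1 with BMP4, and -0.05, 0.50 and 0.24 for BMP4 with untreated. The numbers were taken as pairs in those comparisons where each was above 0.1, and the blocked value or count is given where it changed a call. The rule was applied to each comparison by itself. With so few arrays it cannot show that the numbers are not pairs in BMP4 with untreated. Alternatives were the replicate block, leaving out each array or the 3 arrays numbered 2, a fit of the 2 groups alone, centring, quantile normalization, array weights, a robust variance prior, other sets of probe sets, the mean over a gene's probe sets, and the methods' t-test. Figures were drawn with matplotlib 3.10.9 in Python 3.11.15.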

Additional observations from a re-analysis of the deposited data

How the results depend on the processing

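Bmp4 and the most variable probe sets of Acvr1 with BMP4, and Gdf10 and Acvr1 with TGF-β1, kept their direction and call in all alternatives run but the methods' t-test. Over the 75 pairs of a member probe set and a comparison, 618 results kept direction and call when 1 array was left out, 35 lost a call, 8 gained one and 14 turned sign. Under the other alternatives the counts were 568, 31, 19 and 6. The turned results came from 10 of the 75, none of which was called with all arrays or where it turned, and reached at most 0.20 on the log2 scale after turning. Among most variable probe sets these were Bmpr1b between TGF-β1 and BMP4 (-0.22 to 0.027 over the fits without 1 array) and Bmp2 in that comparison without the 3 arrays numbered 2 (0.029). In fits without 1 array, calls not named above were gained by Bmpr1a 1425491_at with BMP4 without BMP4 replicate 3 (adjusted p = 0.014) or untreated replicate 2 (0.046), Bmpr2 1441652_at with BMP4 without untreated replicate 3 (0.041) and Bmpr1b 1437312_at between TGF-β1 and BMP4 without BMP4 replicate 2 (0.038). Gains under the other alternatives included Bmpr2 1441652_at with BMP4 under array weights (0.049). The cause of these changes was not tested.

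Counts are given in the order BMP4 with untreated, TGF-β1 with untreated, TGF-β1 with BMP4. Leaving out 1 array gave 1431 to 2262, 867 to 2053 and 1877 to 3330 calls over all probe sets, 4 to 9, 3 to 5 and 5 to 8 member probe sets, and 2 to 5, 2 to 3 and 3 to 3 member genes. Without the 3 arrays numbered 2, the calls were 1200, 888 and 1819 over all probe sets and 7, 4 and 3 among member probe sets. The replicate block gave 4069, 4029 and 5252 over all probe sets, 15, 10 and 9 member probe sets, and 8, 6 and 4 member genes, where it called 13.1%, 13.4% and 16.8% of all genes. For BMP4 with untreated the numbers were not taken as pairs: BMP4 replicate 1 correlated best with untreated replicate 3 (0.11) and BMP4 replicate 3 with untreated replicate 1 (0.36). However, numbers that mark setups in the other comparisons would mark them here too, and the labels do not say whether they do. In this comparison the block added calls for Bmp7 (adjusted p = 0.0081 and 0.021 on 2 of 3 probe sets), Bmp5 (0.0087 and 0.022) and Bmpr1a (0.021, 0.039 and 0.028 on 3 of 6). In the comparisons taken as paired it changed no call of a member besides those named with their blocked value. The fit of 2 groups alone gave 1617 and 1172 over all probe sets in the comparisons with untreated. With 1 probe set per gene tested, and so fewer tests, 1541 and 1986 were called for BMP4 with untreated and TGF-β1 with BMP4. In the fit of 2 groups, Bmp6 with BMP4 had an adjusted p of 0.067. The mean over probe sets gave 4 member genes for TGF-β1 with untreated, namely Gdf10, Acvr1, Bmpr2 and Bmp6.

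The methods' t-test with its 2-fold threshold called 433, 253 and 543 probe sets, of which 0, 1 and 2 were member probe sets and 0, 1 and 2 member genes. After Benjamini-Hochberg adjustment it called 0, 0 and 11 probe sets, and 0 member probe sets and 0 member genes in each comparison. Centring the arrays on their medians changed no value, so this alternative could not change a call and tested nothing. Quantile normalization, array weights, the robust prior and leaving out probe sets shared between transcripts left every count within 1.5 times. With 3 arrays a group and no signal over background, small differences of dim probe sets could not be told from noise.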
